A study of Mus musculus with 12 samples.

Results

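A set of 9 genes of arginine, nitric oxide and polyamine metabolism, of 56748 genes listed, was described in M2-like polarized bone marrow-derived macrophages (BMDM). They were found by gene symbol and are Nos2, Arg2, Slc7a2, Ass1, Asl, Odc1, Srm, Sms and Sat1. The BMDM came from C57BL/6J donor mice, were grown in M-CSF at 20 ng/mL and were polarized with IL4 at 10 ng/mL for 48 hours, a treatment that all 12 libraries share. For the next 72 hours, 3 cultures each had plain medium (control), medium with recombinant IFNβ (rIFNβ), or medium conditioned by 1 of 2 Dox-treated melanoma lines, YUMM5.2 eGFP (eGFP supernatant) and YUMM5.2 Ifnb1eGFP (Ifnb1eGFP supernatant). IFNβ stood at 1500 pg/mL in the Ifnb1eGFP supernatant and at an equivalent concentration with rIFNβ, and both supernatants went through 1 dilution ratio. YUMM5.2 is a mouse melanoma line with Braf activation and loss of p53, in which doxycycline (Dox, 1 µg/mL for 72 hours) switched on a lentiviral Ifnb1 and eGFP cassette, or eGFP alone. The control and rIFNβ cultures saw no melanoma supernatant, so rIFNβ was compared with control and Ifnb1eGFP supernatant with eGFP supernatant. The series text gives 3 mice per condition. Wild-type mice for the study were bought as females of 10 to 12 weeks, and the methods give no separate age or sex for the bone marrow donors.

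Arginine enters macrophages through cationic amino acid transporters and is then split between competing enzymes. Inducible nitric oxide synthase turns it into nitric oxide and citrulline, and argininosuccinate synthase and lyase rebuild arginine from that citrulline. Arginases turn it into urea and ornithine, from which ornithine decarboxylase makes putrescine, and spermidine and spermine synthases extend putrescine to the larger polyamines. In mouse macrophages, high Nos2 is a textbook mark of the inflammatory state and high Arg1 of the IL4-driven state.

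The libraries held between 31526034 and 45348457 counts. Members are given as counts per 1e6 counts (CPM), scaled to library sizes corrected by TMM, and levels are compared between genes only as CPM per kilobase of exon (FPKM). All 8 macrophage markers were measured, and their summed level was 14300 to 18600 CPM without IFNβ and 9840 to 10800 CPM with it. Lyz2 was the largest part of this sum, at 3440 to 12800 CPM over the 12 libraries. Adgre1 stayed at 1480 to 1840 CPM, Csf1r at 1020 to 1190 CPM, and Fcgr1 spanned 48.8 to 1290 CPM. The sum therefore does not stand for each marker. The IL4 marker list summed to 749 to 1030 CPM over the 12 libraries, most of it Mrc1, while Arg1 had at most 36 counts and Ccl24 at most 8 counts in any library. Defining markers of T cells (Cd3e, Cd3d, Cd3g, Cd8a and Trac) had at most 1 count, those of melanoma summed to at most 0.809 CPM with Tyrp1 at 0, and the lists of B cells, dendritic cells, mast cells and erythroid cells each summed to at most 1.71 CPM, with Mcpt4 and Tpsb2 at 0. Cd4 alone of the T cell list was well measured, and it brought that list to 3.75 to 5.05 CPM without IFNβ and 8.08 to 9.95 CPM with it. The neutrophil list stood at 4.87 to 6.23 CPM without IFNβ and 0.237 to 1.01 CPM with it. S100a8 alone reached 5.72 CPM of this, while Cxcr2 had at most 31 counts in any library. Ly6g, S100a9, Mpo, Elane, Camp and Retnlg had at most 10 counts, so the list rests mainly on S100a8. Fibroblast markers stood at 30.5 to 84.0 CPM with overlapping ranges in the 4 conditions. Replicates 1 and 2 of Ifnb1eGFP supernatant stood apart from the other libraries, since their deviations from the condition mean followed the GC content of genes in opposite directions (Spearman correlation across genes of -0.557 and 0.546). Values without each of these libraries, or with the GC trend of each library removed, are given below beside some of the results that they moved. The part of the marker lists in the results was not tested. In bulk RNA, fewer cells of a type and less RNA per cell cannot be told apart.

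Of the 9 members, 8 passed the filter on low counts, and Arg2 did not. Both comparisons of IFNβ with its control called the same members in the same directions: Nos2, Odc1 and Sat1 were higher and Slc7a2, Srm and Sms were lower. These are 3 of 8 members higher and 3 of 8 lower, with edgeR's quasi-likelihood test and Benjamini-Hochberg adjustment over all 15033 genes tested. The Nos2 call counted here is no support for a difference, because Nos2 passed the filter only through IFNβ-exposed libraries. Over all genes, 30.1% were called higher and 25% lower with Ifnb1eGFP supernatant against eGFP supernatant. With rIFNβ against control, 30.7% were called higher and 24.6% lower. Counts among only 8 members were not tested against these shares, and no excess is read from them. The median log2 fold change of the 8 members was 0.047 and 0.092 in these comparisons, beside 0.028 and 0.044 for all genes. Groups did not overlap for 6 of 8 members in each comparison, beside 8864 and 9930 of all 15033 genes tested. A lack of overlap, given below for single genes, was therefore common. How often all exposed libraries lay apart from all unexposed ones was not counted over all genes. No member reached the study's stricter threshold of a log2 fold change of 2 with an adjusted p of 0.01, which 5.39% and 5.77% of all genes passed.

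**Figure D1:**
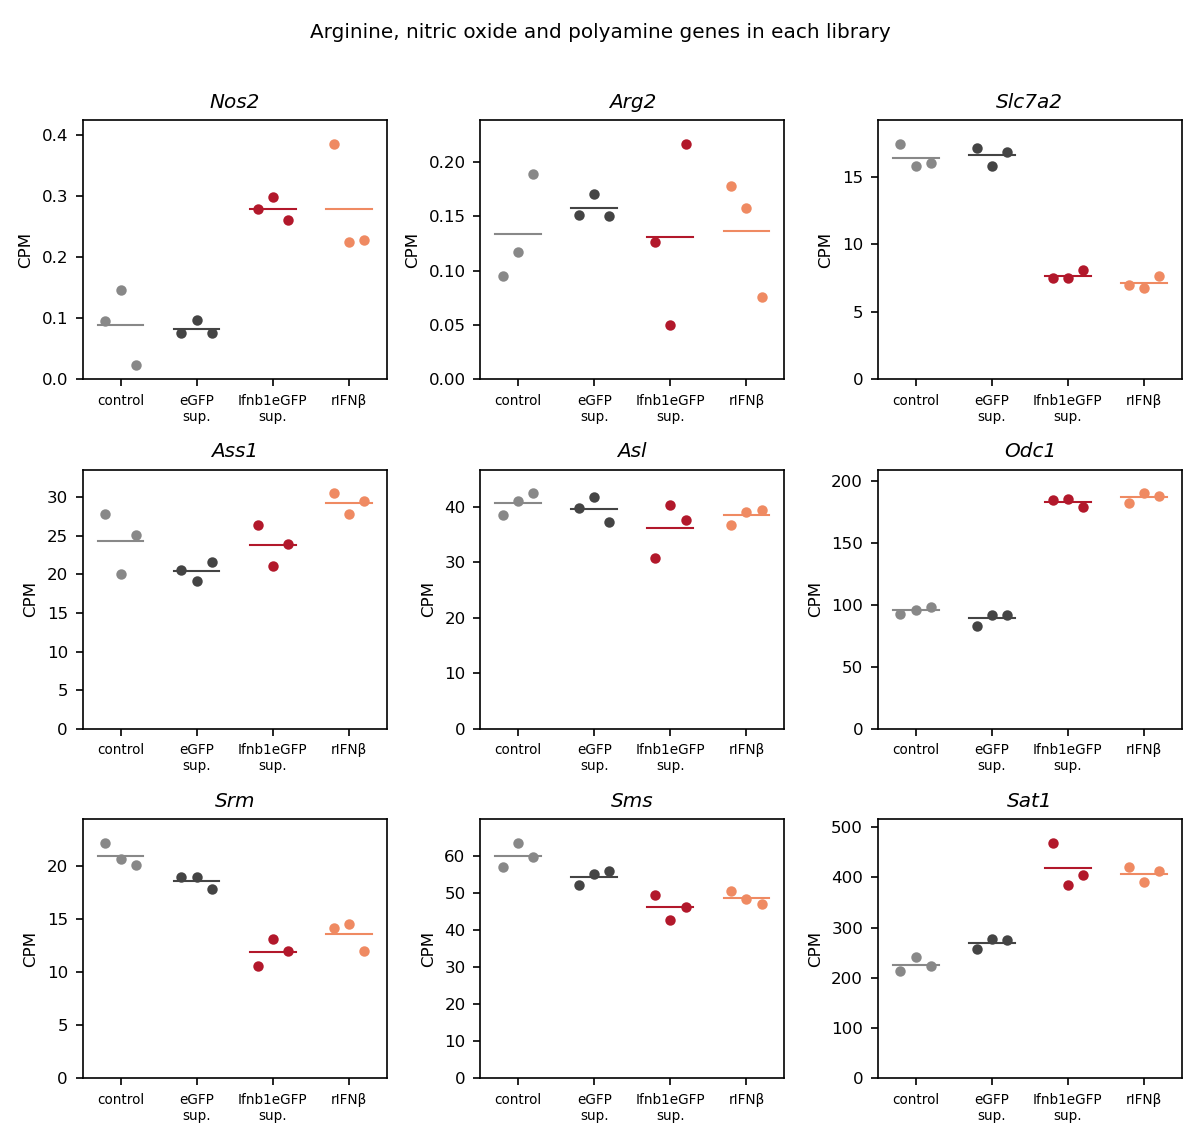
CPM of each member in every library (points, in the order of the replicate numbers) with the condition mean (line); each panel has its own axis from 0. Odc1 lies at 83.1 to 98.1 CPM without IFNβ and at 179 to 190 CPM with it, Slc7a2 at 15.8 to 17.5 and 6.79 to 8.08 CPM, while Nos2 and Arg2 stay under 0.4 CPM throughout.

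Nos2 (chr11:78811613-78851080, plus strand, GRCm39), the inducible nitric oxide synthase, was barely transcribed in any condition. Control libraries held 3, 5 and 1 counts and eGFP supernatant libraries 3, 4 and 3 counts. With Ifnb1eGFP supernatant there were 11, 12 and 12 counts, and with rIFNβ 13, 10 and 9. The groups did not overlap, yet every IFNβ-exposed library had fewer than 0.4 CPM. The fitted log2 fold change was 1.71 (SE 0.46, adjusted p = 0.00797, edgeR) for Ifnb1eGFP supernatant against eGFP supernatant and 1.67 (SE 0.47, adjusted p = 0.0109) for rIFNβ against control. Taken from summed counts, 35 against 10 gave a ratio of 3.35 (95% interval from counting error alone 1.62 to 7.59) and 32 against 9 a ratio of 3.26 (1.52 to 7.76). Nos2 passed the filter only through IFNβ-exposed libraries (4 of 12 libraries reached its 0.251 CPM), so its call is no support for a difference; in the fit without that filter its adjusted p values were 0.0204 and 0.0265. The second call was lost without control replicate 3, the library with 1 count, where log2 fold change was 1.16 and adjusted p = 0.0581. An antisense RNA, Gm71838, shares 97 exon bases with Nos2, and whether counting used the strand is not given in the sources used here.

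Arg2 (chr12:79177524-79203075, plus strand), the mitochondrial arginase, was at the limit of detection everywhere. Its libraries held 3, 4 and 8 counts in control, 6, 7 and 6 with eGFP supernatant, 5, 2 and 10 with Ifnb1eGFP supernatant and 6, 7 and 3 with rIFNβ. All 4 ranges overlapped. Summed counts gave a ratio of 0.856 (counting interval 0.418 to 1.74) for Ifnb1eGFP supernatant against eGFP supernatant and 0.977 (0.453 to 2.12) for rIFNβ against control, so a change of less than about this width was not detectable at this depth. Of its 1455 exon bases, 492 lie opposite exons of Vti1b. The cytosolic arginase Arg1, which is not a member, was nearly as low in these IL4-polarized cells, with 13, 14 and 23 counts in control, 23, 36 and 21 with eGFP supernatant, 11, 15 and 33 with Ifnb1eGFP supernatant and 7, 11 and 13 with rIFNβ. Arg1 was not called, at log2 fold changes of -0.52 (SE 0.35, adjusted p = 0.228) and -0.80 (SE 0.39, adjusted p = 0.106). Leaving out Ifnb1eGFP supernatant replicate 3, which held 33 counts, gave -1.02 with adjusted p = 0.0275, and fitting the compared conditions alone gave -0.83 with adjusted p = 0.0424 for rIFNβ against control.

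Slc7a2 (chr8:41315431-41375345, plus strand) encodes a cationic amino acid transporter that brings arginine into activated macrophages. It stood at 17.5, 15.8 and 16.1 CPM in control and at 17.2, 15.8 and 16.9 CPM with eGFP supernatant. It was 7.51, 7.50 and 8.08 CPM with Ifnb1eGFP supernatant and 6.97, 6.79 and 7.68 CPM with rIFNβ. Every IFNβ-exposed library lay below every unexposed one, and the ranges with both sources of IFNβ overlapped. Slc7a2 fell by 1.11 on the log2 scale with Ifnb1eGFP supernatant (SE 0.069, adjusted p = 1.22e-07) and by 1.20 with rIFNβ (SE 0.070, adjusted p = 6.26e-08), which is 2.16-fold and 2.30-fold lower. Removing the GC trend of each library changed the log2 fold changes to -1.30 and -1.34.

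The recycling enzymes of the citrulline loop were not called in either comparison. Ass1 (chr2:31352181-31410862, plus strand), argininosuccinate synthase, stood at 27.9, 20.1 and 25.1 CPM in control, 20.6, 19.1 and 21.5 with eGFP supernatant, 26.4, 21.1 and 23.9 with Ifnb1eGFP supernatant and 30.5, 27.8 and 29.6 with rIFNβ. The rIFNβ libraries held the highest values, but control replicate 1 lay within their range, and the ranges with the 2 supernatants overlapped. Log2 fold changes were 0.22 (95% interval -0.026 to 0.471, adjusted p = 0.118) with Ifnb1eGFP supernatant and 0.27 (0.0189 to 0.513, adjusted p = 0.0647) with rIFNβ. This outcome depended on the processing. Without Ifnb1eGFP supernatant replicate 2 the first value was 0.30 with adjusted p = 0.0416, and without replicate 1 it was 0.11 with adjusted p = 0.513. Without control replicate 1 the second was 0.37 with adjusted p = 0.0191, and without control replicate 2 it was 0.15 with adjusted p = 0.237. Removing each library's GC trend gave 0.36 (adjusted p = 0.035) and 0.35 (adjusted p = 0.0411). Ass1 was lowest in replicate 2 in each of the 4 conditions, and so was the fibroblast marker sum, at 35.9 and 50.4 CPM in control and rIFNβ and at 30.5 and 56.6 CPM with eGFP and Ifnb1eGFP supernatant; the part of stromal cells in the Ass1 values was not tested.

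Asl (chr5:130040099-130058088, minus strand), argininosuccinate lyase, which cleaves the product of Ass1 to arginine, had the smallest log2 fold changes of the 8 members tested. It stood at 38.5, 41.2 and 42.5 CPM in control, 39.9, 41.8 and 37.3 with eGFP supernatant, 30.9, 40.3 and 37.6 with Ifnb1eGFP supernatant and 36.8, 39.1 and 39.6 with rIFNβ. Ranges overlapped in both comparisons, and the single low value was Ifnb1eGFP supernatant replicate 1. Log2 fold changes were -0.13 (95% interval -0.319 to 0.0626, adjusted p = 0.235) and -0.08 (-0.273 to 0.11, adjusted p = 0.459), and the first became 0.011 once the GC trend of each library was removed.

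Odc1 (chr12:17594383-17601507, plus strand), ornithine decarboxylase, makes putrescine in the rate-limiting step of polyamine synthesis, and it gave the smallest adjusted p of all members. It stood at 92.6, 96.2 and 98.1 CPM in control and 83.1, 92.2 and 92.1 CPM with eGFP supernatant. With Ifnb1eGFP supernatant it was 184.5, 185.3 and 179.4 CPM, and with rIFNβ 182.2, 190.1 and 188.1 CPM. The 6 exposed libraries lay in a narrow band well above the 6 unexposed ones. Odc1 rose 2.05-fold with Ifnb1eGFP supernatant (log2 fold change 1.04, SE 0.047, adjusted p = 9.97e-09, edgeR) and 1.95-fold with rIFNβ (0.97, SE 0.047, adjusted p = 1.52e-08).

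The synthases downstream of Odc1 went the other way. Srm (chr4:148675940-148681792, plus strand), spermidine synthase, stood at 22.2, 20.7 and 20.1 CPM in control and 19.0, 19.0 and 17.9 CPM with eGFP supernatant. It was 10.6, 13.2 and 12 CPM with Ifnb1eGFP supernatant and 14.2, 14.5 and 12.1 CPM with rIFNβ. No exposed library reached the level of an unexposed one. Srm fell by 0.64 on the log2 scale with Ifnb1eGFP supernatant (SE 0.090, adjusted p = 8.92e-05) and by 0.63 with rIFNβ (SE 0.090, adjusted p = 0.000106).

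Sms (chrX:156226848-156275317, minus strand), spermine synthase, showed the smallest called difference. Its values were 56.9, 63.4 and 59.6 CPM in control, 52.0, 55.1 and 56.0 with eGFP supernatant, 49.5, 42.5 and 46.2 with Ifnb1eGFP supernatant and 50.6, 48.3 and 46.9 with rIFNβ. The groups of each comparison did not overlap, although eGFP supernatant replicate 1 came close to Ifnb1eGFP supernatant replicate 1. Sms fell by 0.24 on the log2 scale with Ifnb1eGFP supernatant (SE 0.062, adjusted p = 0.00681) and by 0.30 with rIFNβ (SE 0.062, adjusted p = 0.00145). Removing the GC trend of each library changed the first value to -0.43 (adjusted p = 4.99e-06) and the second to -0.44 (adjusted p = 3.93e-06).

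Sat1 (chrX:153996128-153999452, minus strand), spermidine/spermine acetyltransferase, marks both large polyamines for breakdown or export and was the most abundant member. It stood at 213.5, 240.6 and 223.2 CPM in control and 257.2, 276.4 and 274.7 CPM with eGFP supernatant. It was 468.5, 383.9 and 404.5 CPM with Ifnb1eGFP supernatant and 419.9, 389.9 and 412.6 CPM with rIFNβ. The exposed libraries again lay above all unexposed ones, and the control and eGFP supernatant libraries did not overlap each other. Such a lack of overlap between control and eGFP supernatant held for 4 of 8 members and for 2326 of all 15033 genes tested. Sat1 rose 1.55-fold with Ifnb1eGFP supernatant (log2 fold change 0.64, SE 0.074, adjusted p = 1.94e-05) and 1.80-fold with rIFNβ (0.85, SE 0.074, adjusted p = 1.68e-06). With the GC trend of each library removed, these log2 fold changes were 0.45 (adjusted p = 8.49e-06) and 0.72 (adjusted p = 1.28e-07). RSEM divided reads between genes of like sequence for Ass1, Arg2, Odc1, Sms and Sat1, whose deposited counts are not all whole. That division adds an uncertainty to their levels which the whole counts of Nos2, Asl, Slc7a2 and Srm do not show. It does not rank the members by certainty. With Ifnb1eGFP supernatant the SE of the log2 fold change was 0.46 for the low gene Nos2 and 0.047 for Odc1. Sat1 also shares 135 exon bases with a second gene on the same strand, ENSMUSG00000144259. Odc1 shares 136 exon bases with the small RNA gene Gm22748 on its own strand and 225 with Gm59592 on the other, and Asl shares 67 with Gm73169 on the other.

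**Figure D2:**
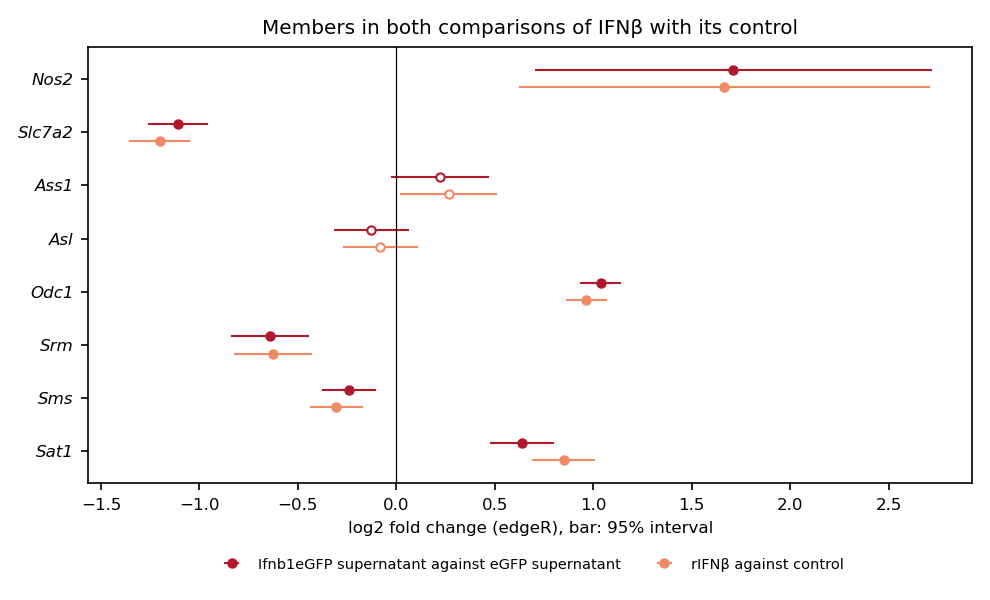
Log2 fold change of the 8 members tested (points) with its 95% interval from edgeR (bars), for Ifnb1eGFP supernatant against eGFP supernatant and rIFNβ against control; filled points passed an adjusted p of 0.05 and open points did not. Odc1 and Sat1 lie right of 0 with short bars, Nos2 lies right of 0 with an interval of 0.702 to 2.72 and 0.624 to 2.71, Slc7a2, Srm and Sms lie left of 0, and Ass1 and Asl are open.

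The values with and without the Ifnb1eGFP supernatant libraries that stood apart were as follows. Leaving out replicate 1 or replicate 2 gave log2 fold changes against eGFP supernatant of 0.99 and 1.03 for Odc1, 0.51 and 0.70 for Sat1, -1.13 and -1.09 for Slc7a2, -0.61 and -0.72 for Srm, -0.33 and -0.18 for Sms, and 1.67 and 1.66 for Nos2. All of these stayed called, with adjusted p between 4.43e-08 and 0.0219. For Nos2 the call is again no support for a difference, given how it passed the filter.

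Promoters of 4 of the 9 members (Odc1, Sat1, Sms and Ass1) were found in RefSeq (GRCm38.p6), as 250 bases before to 50 after the start, with coordinates in that build. Those of Odc1 and Sat1, which rose together, and of Sms, which fell, are shown so that the letters can be read beside these changes. A capital marks the first transcribed base and, in Sms, a run of capitals marks a CACGTG.
Odc1 (chr12:17544623-17544922, plus strand): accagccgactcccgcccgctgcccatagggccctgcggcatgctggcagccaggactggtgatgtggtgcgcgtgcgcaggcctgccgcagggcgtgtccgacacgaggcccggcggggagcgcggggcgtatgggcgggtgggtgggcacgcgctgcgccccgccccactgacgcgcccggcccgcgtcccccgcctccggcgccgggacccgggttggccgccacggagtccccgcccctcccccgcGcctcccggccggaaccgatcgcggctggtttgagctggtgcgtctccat
Sat1 (chrX:155216400-155216699, minus strand): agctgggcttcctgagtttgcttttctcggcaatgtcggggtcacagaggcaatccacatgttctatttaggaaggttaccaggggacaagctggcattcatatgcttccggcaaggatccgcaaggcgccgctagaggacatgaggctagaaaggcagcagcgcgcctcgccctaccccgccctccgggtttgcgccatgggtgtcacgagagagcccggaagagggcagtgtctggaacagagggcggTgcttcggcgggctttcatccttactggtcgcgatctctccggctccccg
Sms (chrX:157492238-157492537, minus strand): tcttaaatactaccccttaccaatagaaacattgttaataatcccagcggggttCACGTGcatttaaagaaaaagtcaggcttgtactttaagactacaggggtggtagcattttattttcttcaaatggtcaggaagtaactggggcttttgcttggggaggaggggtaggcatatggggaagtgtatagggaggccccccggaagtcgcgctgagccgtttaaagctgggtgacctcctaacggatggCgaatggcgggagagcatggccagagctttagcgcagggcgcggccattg
On both strands, 7 motifs were searched: the interferon-stimulated response element core GAAANNGAAA, the gamma-activated site TTCNNNGAA, the STAT6 type site TTCNNNNGAA, the NF-kB type site GGGANNNTCC, the E-box CACGTG, the cAMP response element TGACGTCA and the ATF4 type site TGATGNAA. Of these only the E-box was found in the 5 promoters of the 4 members (Sms has 2 starts), once in Sms as shown and once in Ass1. In all 32851 promoters of the table, 3.44% held the response element core, 8.3% the gamma-activated site, 6.95% the STAT6 type site, 4.59% the NF-kB type site, 7.15% the E-box, 1.79% the cAMP response element and 3.97% the ATF4 type site. The GC content of the printed windows was 78% for Odc1, 60.3% for Sat1 and 50.3% for Sms. The second Sms promoter, which is not printed, had 74.3% and none of the 7 motifs, and that of Ass1 had 74%. Neither GC content nor the E-box was tested against the direction of change.

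Per length of exon, Sat1 stood highest in every condition, at 81.2 ± 4.94 FPKM (SD, n = 3) in control and 150.6 ± 15.9 FPKM with Ifnb1eGFP supernatant. Odc1 came next, at 16.9 ± 0.489 FPKM in control and 32.3 ± 0.562 FPKM with Ifnb1eGFP supernatant. Sms followed at 9.59 ± 0.521 FPKM in control, then Ass1 and Asl, whose ranges overlapped there, at 6.52 ± 1.05 and 6.11 ± 0.302 FPKM. Srm (4.83 ± 0.249 FPKM), Slc7a2 (1.63 ± 0.0884 FPKM), Arg2 (0.0920 ± 0.0338 FPKM) and Nos2 (0.0199 ± 0.0139 FPKM) came last and did not overlap their neighbours. With eGFP supernatant the order differed only in Asl and Ass1, which overlapped again. With Ifnb1eGFP supernatant Sms and Ass1 overlapped (7.36 ± 0.557 and 6.37 ± 0.708 FPKM), as they did with rIFNβ, where Ass1 was nominally ahead at 7.84 ± 0.368 against 7.77 ± 0.296 FPKM. Nos2 and Arg2 overlapped in both IFNβ conditions.

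Ratios of these levels between genes, chosen after the members' values were seen and given with no test, set the opposite changes side by side. Odc1 per Srm was 3.20 to 3.95 in the unexposed libraries and 9.85 to 13.4 in the exposed ones. Odc1 per Oaz1, the antizyme that inhibits ornithine decarboxylase, was 0.143 to 0.186 and 0.426 to 0.652. Sat1 per Srm was 15.0 to 24.0 and 41.9 to 69.0, whereas Sat1 per Odc1 was 4.18 to 6.30 throughout, with its highest values in eGFP supernatant. Slc7a1, the other main arginine transporter, stood at 1.78 to 2.38 per Slc7a2 without IFNβ and at 3.02 to 4.15 with it. Sms per Srm was 1.78 to 2.17 without IFNβ and 2.24 to 3.24 with it, and Ass1 per Asl was 0.814 to 1.29 and 0.934 to 1.52. All of these ratios except Sat1 per Odc1 and Ass1 per Asl separated exposed from unexposed libraries without overlap. How often other pairs of genes separate in this way was not tested.

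**Figure D3:**
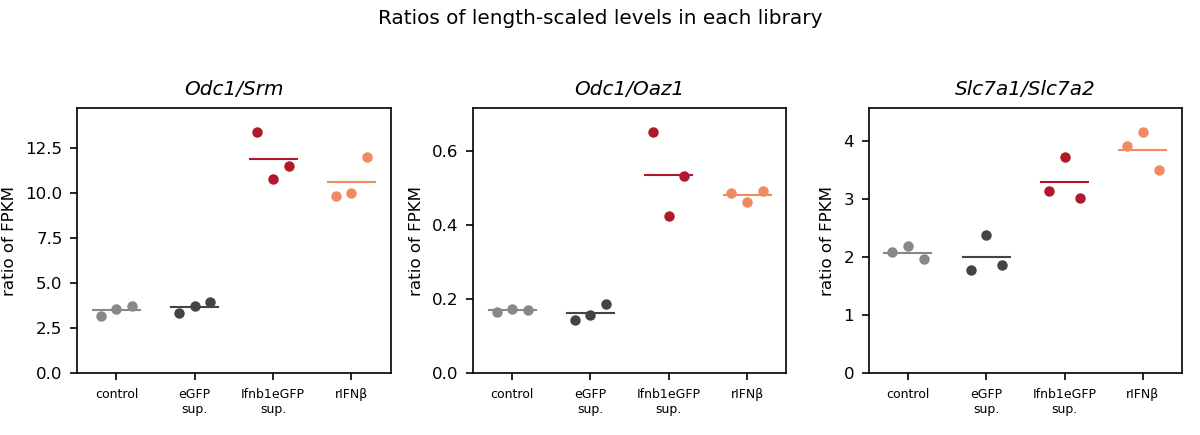
Ratio of FPKM in each library (points) with the condition mean (line) for Odc1 to Srm, Odc1 to the antizyme Oaz1, and the arginine transporters Slc7a1 to Slc7a2; axes start at 0. In each panel the 6 IFNβ-exposed libraries lie above the 6 unexposed ones.

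In eGFP supernatant against control, no member was called by edgeR or DESeq2, where 0.299% of all genes were called by edgeR. At an unadjusted p under 0.05 there were 3 members of 8, Sat1, Ass1 and Sms, where 8% of all genes tested were. Sat1 had the largest of these differences, 0.26 on the log2 scale (95% interval 0.0934 to 0.417, adjusted p = 0.278), and Odc1, Srm and Sms had values of -0.10, -0.17 and -0.14. No member was called between Ifnb1eGFP supernatant and rIFNβ either, by edgeR or DESeq2, where 0.16% of all genes were called by edgeR. The 95% intervals of the log2 difference were -0.131 to 0.0731 for Odc1, -0.121 to 0.201 for Sat1 and -0.0494 to 0.264 for Slc7a2, whereas Ass1, at -0.30 (-0.544 to -0.052, adjusted p = 0.553), was the 1 member of 8 at an unadjusted p under 0.05, beside 8.57% of all genes tested. The interaction, which asks whether IFNβ acted differently with and without melanoma supernatant, was called for none of the 8 members (0% of all genes by edgeR, 661 genes at an unadjusted p under 0.05, 9 genes by DESeq2). Its value for Sat1 was -0.21 (adjusted p = 0.926), the farthest from 0 among the members.

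Around the members, 56 further genes of these pathways were listed and 46 passed the filter. With Ifnb1eGFP supernatant 12 were higher and 18 lower, and with rIFNβ 13 were higher and 19 lower, beside 30.1% higher and 25% lower, and 30.7% higher and 24.6% lower, of all genes. Their median log2 fold changes were -0.229 and -0.0532, beside 0.028 and 0.044 for all genes. Groups did not overlap for 29 and 35 of the 46, beside 8864 and 9930 of all 15033 genes tested. None was called in eGFP supernatant against control, where 7 of the 46 (15.2%) had an unadjusted p under 0.05, beside 8% of all genes. None was called in Ifnb1eGFP supernatant against rIFNβ either, where 3 (6.52%) had one, beside 8.57% of all genes.

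Among regulators of nitric oxide synthases, 2 of 4 genes tested rose in both comparisons and none fell. Beside this count and that of the cofactor genes below, 30.1% and 30.7% of all genes were called higher and 25% and 24.6% lower. Counts of so few genes were not tested against these shares. Nosip, which binds and relocates endothelial nitric oxide synthase, rose by 1.14 (SE 0.14, adjusted p = 2.78e-05) and 1.26 (SE 0.14, adjusted p = 1.27e-05) on the log2 scale, and Nostrin, which traffics the same enzyme, by 0.89 and 0.93. The synthases Nos1 and Nos3 did not pass the filter. Of the genes of tetrahydrobiopterin, the cofactor of nitric oxide synthases, 3 of 5 tested rose and 1 fell. Gch1, the rate-limiting enzyme of its synthesis, was 17.2, 15.1 and 14.7 CPM in control and 16.9, 18.1 and 14.5 CPM with eGFP supernatant. It was 36.6, 37.0 and 34.1 CPM with Ifnb1eGFP supernatant and 41.4, 39.8 and 34.9 CPM with rIFNβ, which is 2.18-fold (adjusted p = 1.36e-06) and 2.48-fold (adjusted p = 3.74e-07) higher. Pts, the next enzyme, rose by 0.54 and 0.72, although the first value was 0.30 with the GC trend removed, whereas the recycling enzyme Qdpr fell by 0.70 and 0.75.

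Of the genes of ornithine, proline and the urea cycle, 5 of 8 tested fell in both comparisons, where 25% and 24.6% of all genes were called lower, and 1, Pycr3, was called higher with rIFNβ alone. Oat, which turns ornithine into a proline precursor, fell by 0.33 and 0.41 (SE 0.045 for each), Aldh18a1, which makes that precursor from glutamate, by 0.57 and 0.38, and Prodh, which breaks proline down, by 0.61 and 0.47. Cps1 had no count in any library, and Otc 1 count in 1 library, so these urea cycle enzymes were not detectable at this depth. Creatine genes moved in opposite directions. Gatm, which takes the amidino group from arginine, rose 2.01-fold (adjusted p = 6.07e-07) and 2.25-fold (adjusted p = 1.69e-07), while Gamt, the following methyltransferase, fell by 0.80 and 0.95 and the creatine kinase Ckb by 1.29 and 0.96. Ckb was 153.9 CPM in Ifnb1eGFP supernatant replicate 1 and 356.6 CPM in replicate 2, the libraries that stood apart by GC content.

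Of the transporters, 2 of 5 tested rose and 2 fell in both comparisons, where 30.1% and 30.7% of all genes were called higher and 25% and 24.6% lower. Slc3a2, the shared heavy chain of several amino acid exchangers, was 281.5 to 305.2 CPM in control, 264.4 to 285.1 with eGFP supernatant, 520.3 to 638.7 with Ifnb1eGFP supernatant and 588.7 to 630.8 with rIFNβ. It rose by 1.12 and 1.08 on the log2 scale (adjusted p = 1.67e-07 and 1.98e-07). Its arginine-exchanging light chains split, with Slc7a7 higher by 0.61 and 0.88 and Slc7a6 lower, by -0.63 and -0.59. Slc7a1 fell by 0.40 and 0.32, beside 1.11 and 1.20 for Slc7a2.

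Among polyamine synthesis, breakdown and antizyme genes, 3 of 9 tested rose and 2 fell with Ifnb1eGFP supernatant, and 2 rose and 3 fell with rIFNβ. Beside these and the other counts in this paragraph, 30.1% and 30.7% of all genes were called higher and 25% and 24.6% lower. Counts of so few genes were not tested against these shares. The oxidase Paox, which cleaves the acetylated products of Sat1, rose by 0.90 (SE 0.081, adjusted p = 2.54e-06) and 1.18 (SE 0.083, adjusted p = 3.02e-07). Smox rose by 0.42 (adjusted p = 0.0462, with overlapping groups) and 0.71 (adjusted p = 0.00324). The antizymes Oaz1 and Oaz2, which inhibit and target ornithine decarboxylase for degradation, fell by 0.65 and 0.53 and by 0.49 and 0.46. The antizyme inhibitor Azin1 was called lower with rIFNβ alone, by 0.25 (adjusted p = 0.000203). Oaz1 was 126.6, 194.5 and 150.9 CPM with Ifnb1eGFP supernatant, against 259.9, 260.4 and 221.1 CPM with eGFP supernatant, so no library overlapped. Its lowest and highest values with Ifnb1eGFP supernatant were those of replicates 1 and 2, the libraries that stood apart by GC content. Of the polyamine transporters, 2 of 3 tested fell in both comparisons, Atp13a3 by -0.65 and -0.76 and Slc18b1 by -0.68 and -0.96; the first Slc18b1 call was lost with the compared conditions alone (-0.69, adjusted p = 0.0542), without eGFP supernatant replicate 2 (-0.41, adjusted p = 0.118) and without Ifnb1eGFP supernatant replicate 3 (-0.64, adjusted p = 0.0673). In hypusination, 2 of 4 genes tested fell in both comparisons. Eif5a, the translation factor that carries hypusine made from spermidine, fell by 0.51 (SE 0.058) and 0.59 (SE 0.058), and Dhps, which attaches it, by 0.30 and 0.38. With the GC trend of each library removed, Eif5a was -0.22 (adjusted p = 0.00425) in the first comparison and Dhps was no longer called (-0.12, adjusted p = 0.283). In the salvage of methylthioadenosine, the by-product of Srm and Sms, 1 of 5 genes tested rose and 2 fell with Ifnb1eGFP supernatant, and 2 rose and 2 fell with rIFNβ. Enoph1 fell by 0.56 and 0.50, Mri1 by 0.76 and 0.40 and Apip rose by 0.36 and 0.28; the second Mri1 call was lost without any 1 of the 3 control libraries or rIFNβ replicates 1 or 3 (adjusted p of 0.0595 to 0.152), and both Apip calls with the GC trend removed (0.15, adjusted p = 0.0708, and 0.12, adjusted p = 0.136). Amd1, which supplies the aminopropyl groups for Srm and Sms, was called with Ifnb1eGFP supernatant alone (0.31, adjusted p = 0.0157), with overlapping groups, and shares sequence with its near-copy Amd2.

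**Figure D4:**
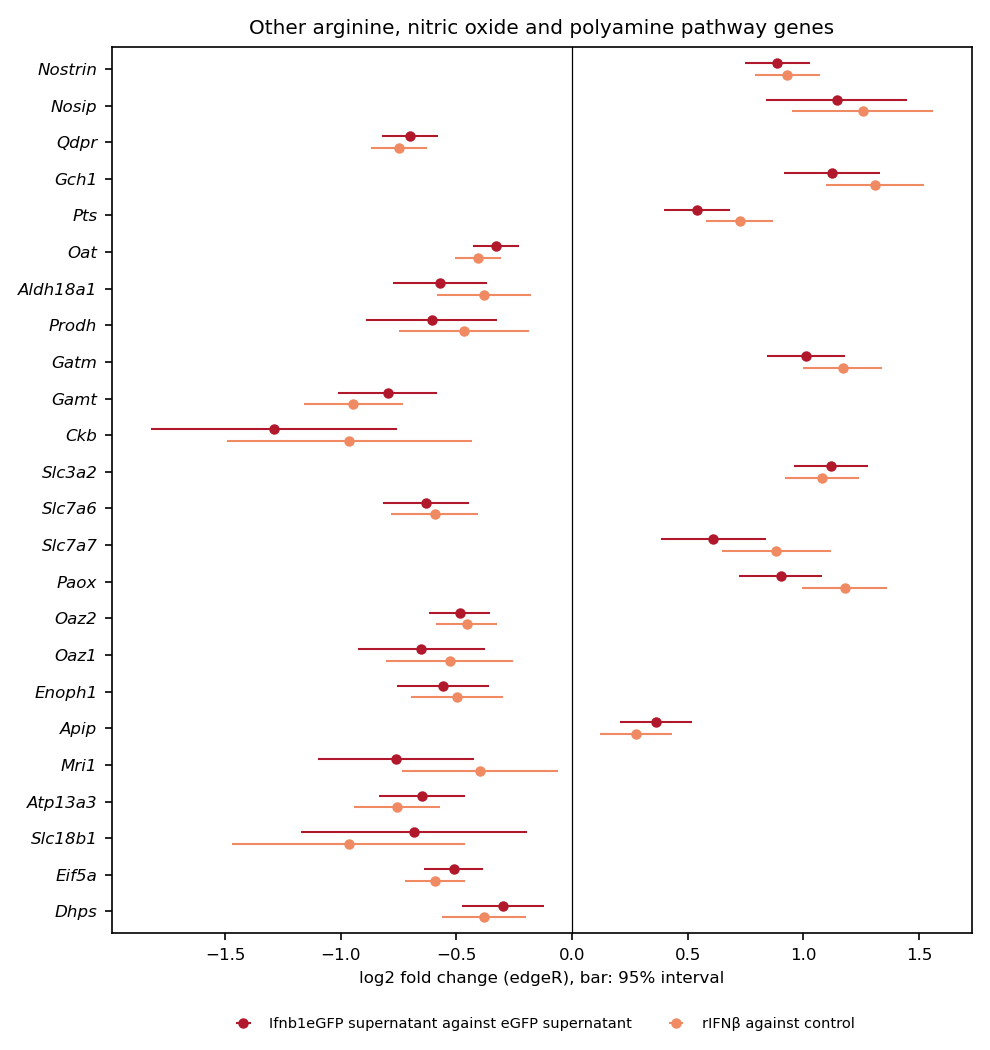
Log2 fold change (points) and 95% interval from edgeR (bars) of 24 further pathway genes, grouped from nitric oxide synthase regulators at the top to hypusination at the bottom, for Ifnb1eGFP supernatant against eGFP supernatant and rIFNβ against control. Every gene passed an adjusted p of 0.05 in both comparisons and has the same sign in both, because the genes were chosen that way; Nosip, Gch1, Gatm and Slc3a2 lie near or above 1 and Ckb near -1.

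The genes whose log2 CPM followed each member most closely over the 12 libraries were found by Pearson's r, as a description. For members whose groups did not overlap, the split into exposed and unexposed libraries sets most of the value. For Slc7a2 they were Bhlhe40, Plcg1 and Layn (r of 0.997, 0.996 and 0.996), for Odc1 BC004004, Lpxn and Vamp8 (each 0.997), for Sat1 Gm49393, BE692007 and Icosl (0.991, 0.989 and 0.989), and for Srm Snd1, Ankrd52 and Atp5mc1 (0.988, 0.986 and 0.986). The other members had looser partners, which were Ric8b for Nos2 (0.975), Ephb6 for Asl (0.968), Pomp for Sms (0.955) and Evc2 for Ass1 (0.945). The groups of Asl and Ass1 overlapped in both IFNβ comparisons, so that split does not describe their r. What sets their r was not tested. Nos2 had only 1 to 13 counts per library.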

How the data were processed

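Bulk RNA of 12 BMDM cultures was sequenced from TruSeq Stranded Total RNA libraries. The authors deposited expected counts per Ensembl gene, estimated with RSEM 1.3.3 per the submitters' processing notes; 12% of the values are not whole and were rounded here. The study's methods name the reference by 2 build names at once (GRCm39 and mm10), and the annotation release is not given in the sources used here. Symbols, positions and exon lengths came from GENCODE M39 on GRCm39 (56017 of 56748 identifiers matched), promoters from RefSeq on GRCm38.p6.

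edgeR 4.0.16 (R 4.3.3; TMM factors, genes kept by filterByExpr with a minimum count of 10, quasi-likelihood F test) was fitted once to all 12 libraries with 4 condition means. P-values were adjusted by Benjamini-Hochberg over the 15033 genes tested, and a gene was called at an adjusted p of at most 0.05. SE is the absolute log2 fold change divided by the square root of F. CPM and FPKM used TMM-corrected totals, and log2 CPM a prior count of 2. Totals of 31526034 to 45348457 counts per library limit low genes, with a floor of 3 counts per library. Ratios of summed counts carry exact Poisson intervals, which cover counting error only. The fits were also run on simulated counts in which far fewer genes changed than were called here. That run therefore cannot show how the fits behave when so many genes differ.

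Alternatives were RLE factors, DESeq2 1.42.0, limma 3.58.1 (voom), no filter, a replicate block, the compared conditions alone and each library left out; removal of each library's GC trend (a spline with 5 degrees of freedom) was added after seeing the data. The members and gene lists were chosen with earlier results of these data known. All members, Arg1, up to 3 called pathway genes per subgroup with the same sign in both IFNβ comparisons and the smallest adjusted p, and the 3 genes most like each member in log2 CPM were to be named; other genes are named where a count or a contrast needed them, after their values were seen. The series text calls the 3 cultures per condition biological replicates, and replicates of a condition differed by more than sampling noise.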

Additional observations from a re-analysis of the deposited data

How the results depend on the processing

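Over 14 alternatives, the calls of Odc1, Sat1, Slc7a2, Srm and Sms in both IFNβ comparisons kept their direction and stayed called. Nos2 lost the second without control replicate 3 (given above), and had 13 alternatives there, since it did not pass the filter with control and rIFNβ alone. The share of all called genes that were higher went from 54.6% and 55.4% to 50.1% in both IFNβ comparisons with RLE factors. Genes called over all genes were less stable in the small comparisons, and the cause was not tested. For eGFP supernatant against control the count of 45 became 204 with DESeq2, 75 without the filter, 22 with the compared conditions alone and 76 with the GC trend removed, and 16 to 32 without 1 library of the compared conditions; without 1 library of the other conditions it was 30 to 76, the highest without Ifnb1eGFP supernatant replicate 1. For Ifnb1eGFP supernatant against rIFNβ the count of 24 became 115 with DESeq2, 41 without the filter and 2 with the compared conditions alone, and 4 to 1051 without 1 library of the compared conditions (16 to 20 without 1 of the others); 1051 came without Ifnb1eGFP supernatant replicate 2, where no member was called. The interaction gave 9 genes with DESeq2 and 1 without the filter. Depth limits Nos2, Arg2 and Arg1.

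The replicate block took the number in the labels as a term. All 18 pairs of same-numbered libraries correlated positively in their deviations (0.0582 to 0.252, 13 of them over 0.1), and each of the 12 libraries correlated best with its own number, a hint from the data and not from the design, since the labels do not say what the number marks. With the replicate block Ass1 was called in both IFNβ comparisons (0.22, adjusted p = 0.0216, and 0.28, adjusted p = 0.0064), eGFP supernatant against control gave 122 genes and Ifnb1eGFP supernatant against rIFNβ 48. With the GC trend removed as well these counts were 256 and 80, and 1 member, Sat1, was called in the former (0.23, adjusted p = 0.0477).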
